A study of Mus musculus with 12 samples.

Results

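The genes of respiratory complex I were followed through the activation of mouse CD8+ T cells with and without sodium lactate. A gene was taken when its symbol in the count table began with Nduf followed by a, b, c, s, v, ab or af and a number. Rows with -ps in the symbol were left out. This gave 45 of the 13780 genes in the table, namely 37 subunit genes and 8 assembly factor genes (Ndufaf1 to Ndufaf8), and all 45 passed the filter on low counts that left 13767 genes to test. The cells came from the spleens of wild type C57BL/6J mice aged 8 to 12 weeks and were purified by positive magnetic bead selection for CD8. Naive cells were frozen directly after purification, media cells were stimulated through CD3 and CD28 by antibody-coated beads in plain media for 72 h with human IL-2 at 10 U/ml, and lactate cells were stimulated in the same way with 40 mM sodium lactate added. Each group had 4 libraries. No sodium chloride group was among the 12 libraries, so the lactate and the added sodium cannot be told apart. In bulk RNA, fewer cells of a type and less RNA per cell cannot be told apart either.

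Complex I is the NADH dehydrogenase of the inner mitochondrial membrane. Its matrix arm takes electrons from NADH at the N module and passes them along iron-sulfur clusters to ubiquinone in the Q module, and its membrane arm, with a proximal and a distal part, pumps protons. Core subunits carry out the catalysis, accessory subunits surround and stabilise them, and assembly factors help to build the complex and then leave it. The core subunits of the membrane arm are encoded by mitochondrial DNA and were not analysed here. Resting T cells have a low mitochondrial mass, and activation is known to expand mitochondrial mass and respiration.

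The libraries held 14726904 to 21478137 counted reads, and the lowest count of a complex I gene in a library was 50 reads (Ndufs5). The summed level of 5 T cell markers was 1580 to 3580 CPM (reads of a gene scaled to the library total) in naive, 2740 to 3460 CPM in media and 2050 to 2610 CPM in lactate libraries. The 4 naive libraries also held RNA of other spleen cells: the summed level of 5 B cell markers was 467 to 1130 CPM in naive and 9.03 to 16.1 CPM in media libraries, that of 5 myeloid markers was 458 to 1510 against 11.9 to 18.7 CPM, and that of 4 red cell markers was 84.1 to 3370 against at most 0.231 CPM. Lactate libraries were at 5.69 to 7.65, 5.18 to 10.6 and at most 1.90 CPM for the 3 lists. No marker of the B cell and myeloid lists was at 0 in a whole group, and 1 red cell marker was at 0 in all media libraries. The part of these cells in the comparisons with naive cells was not tested. The summed level of the CD4+ T cell markers Cd4 and Zbtb7b was 25.2 to 53.0 CPM in naive, 44.6 to 55.7 CPM in media and 75.3 to 89.0 CPM in lactate libraries, so it was higher in every lactate than in every media library, and its part in the comparison of lactate with media was not tested. The 2 NK cell markers summed to 3.13 to 8.00 CPM in naive, at most 0.0925 CPM in media and at most 0.717 CPM in lactate libraries.

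By its name Ndufa4, now placed in complex IV, was counted among the 37 subunit genes. Summed over the 37, the level was 1537.4 ± 80.9 CPM in naive, 2545.4 ± 168.4 CPM in media and 3162.4 ± 166.3 CPM in lactate cells (mean ± SD, n = 4 each). The single libraries lay at 1422.7 to 1598.9 CPM in naive, 2304.0 to 2680.0 CPM in media and 2925.3 to 3311.2 CPM in lactate cells, so the 3 groups did not overlap. The sum was 1.66-fold higher in media than in naive cells and 1.24-fold higher in lactate than in media cells. When levels were scaled by gene length (TPM) the same ratios were 1.66 and 1.16. The 8 assembly factor genes together held 90.4 ± 5.1, 121.0 ± 12.5 and 183.6 ± 7.2 CPM in naive, media and lactate cells.

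**Figure D1:**
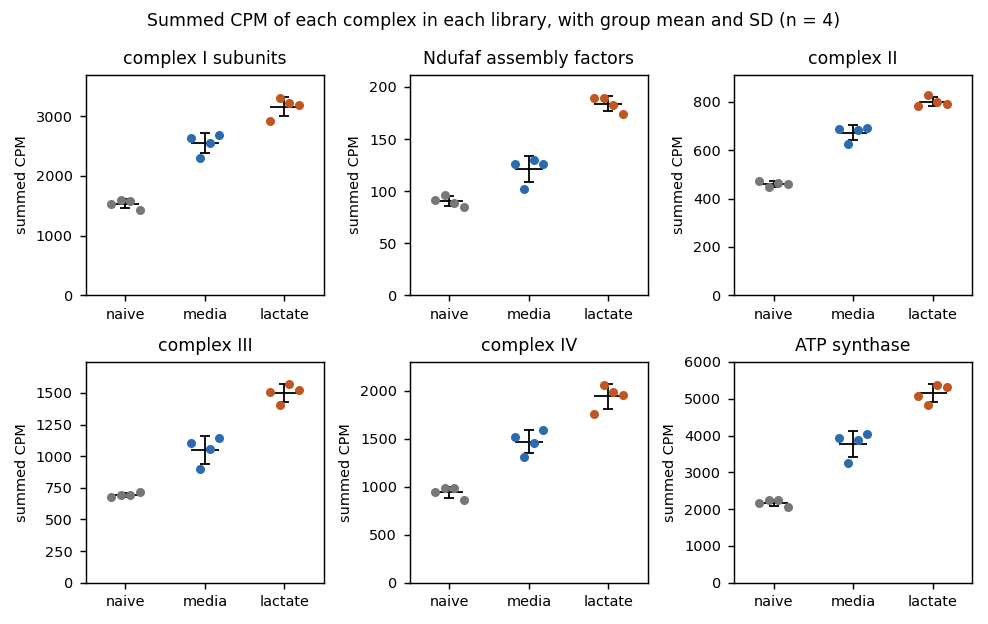
Summed CPM of the genes of each respiratory complex and of the Ndufaf assembly factors (y axes, from 0) in naive, media and lactate libraries. Points are single libraries, and the black marks give the mean and SD of 4. Complex I subunits, with Ndufa4 counted among them, lay at 1422.7 to 1598.9 CPM in naive and 2925.3 to 3311.2 CPM in lactate libraries. No panel shows a lactate library below a media library.

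The subunits are needed in equal numbers in the complex, with the acyl carrier protein Ndufab1 as the exception, but their mRNA levels per gene length were far apart. In naive cells the 37 subunit genes ranged from 6.29 TPM (Ndufb2) to 255 TPM (Ndufa2) around a median of 81.5 TPM. In media cells the range was 7.03 TPM (Ndufb4) to 486 TPM (Ndufa13) with a median of 142 TPM, and in lactate cells 8.7 TPM (Ndufb2) to 435 TPM (Ndufc2) with a median of 163 TPM. Over all 12 libraries, Ndufa13, Ndufb11 and Ndufc2 had the highest mean level of the subunits (345, 317 and 305 TPM), and Ndufb2, Ndufb4 and Ndufab1 the lowest (7.54, 7.85 and 13.9 TPM). The lengths in the table are the union of every annotated exon of a gene, which lowers the TPM of genes with long alternative exons. Divided by the longest coding transcript instead, the range in lactate cells was 3.55 (Ndufb2) to 210 (Ndufa4) CPM per kb. Ndufa4 is now placed in complex IV, and without it the highest was Ndufb7 at 180 CPM per kb. The row of Ndufb4 also carries the symbol of the near-identical copy Ndufb4b, under a single Ensembl gene. Only uniquely mapped reads were counted, so reads that fit a copy elsewhere equally well would be missing from a gene's level. How far this lowers Ndufb4 was not tested.

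**Figure D2:**
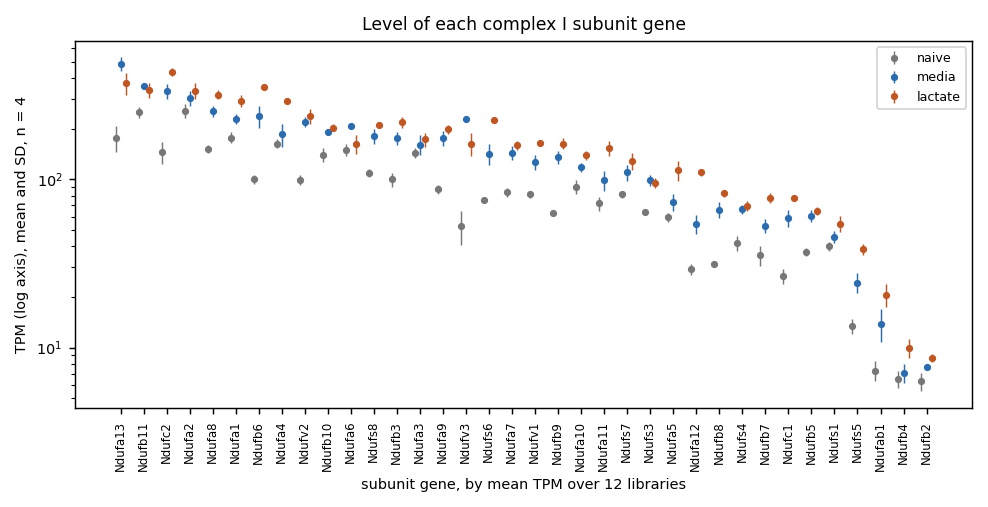
Level of 36 Nduf subunit genes, Ndufa4 included, in TPM (y axis, log scale) in naive, media and lactate cells, ordered by the mean over 12 libraries. Points are means and bars SD (n = 4). The levels ran from 345 TPM for Ndufa13 to 7.54 TPM for Ndufb2.

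Activation in lactate was compared with activation in plain media to see what lactate added to the complex I programme. Of the 37 subunit genes, 21 rose with lactate, 0 fell and 16 were not called by edgeR's quasi-likelihood test at a Benjamini-Hochberg adjusted p of at most 0.01, and 4 of the 8 assembly factor genes rose while 0 fell. Over all genes tested, 13.9% were called higher and 11.1% lower. The median log2 fold change was 0.40 for the subunits (range -0.35 to 1.14) and 0.63 for the assembly factors (range -0.13 to 1.64), against 0.00 for all tested genes. At an unadjusted p under 0.05, 31 subunit genes were higher and 0 lower, beside 3414 higher and 3225 lower of all 13767 tested genes. DESeq2 also called 0 subunit genes lower. All 4 lactate libraries lay above all 4 media libraries for 26 subunit genes and below them for 1 (Ndufv3). Over all tested genes these shares were 23.2% and 21.5%. Only Ndufa12 among the subunits and Ndufaf4 among the assembly factors were more than 2-fold higher. Over all 13767 tested genes, 2210 changed at least 2-fold in either direction.

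Without lactate replicate 3 the number of subunit genes called higher dropped to 13. The share over all tested genes without this library is not given here. The 3 donors with a library of each condition make a block possible, and with the donor as replicate block 15 subunit genes were called higher, beside 14.7% of all tested genes. The 6 genes that lost their edgeR call with this block were Ndufa1 (adjusted p = 0.0123), Ndufb8 (0.0186), Ndufb4 (0.022), Ndufb3 (0.0234), Ndufs7 (0.0284) and Ndufb9 (0.0318). The libraries carry a low or a high series of library numbers, and all 25 called genes were higher with lactate in each series. These genes were called on these same libraries, so this was largely fixed in advance and is no separate support. In the high series, media replicate 4 is the only media library, beside lactate replicates 3 and 4.

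**Figure D3:**
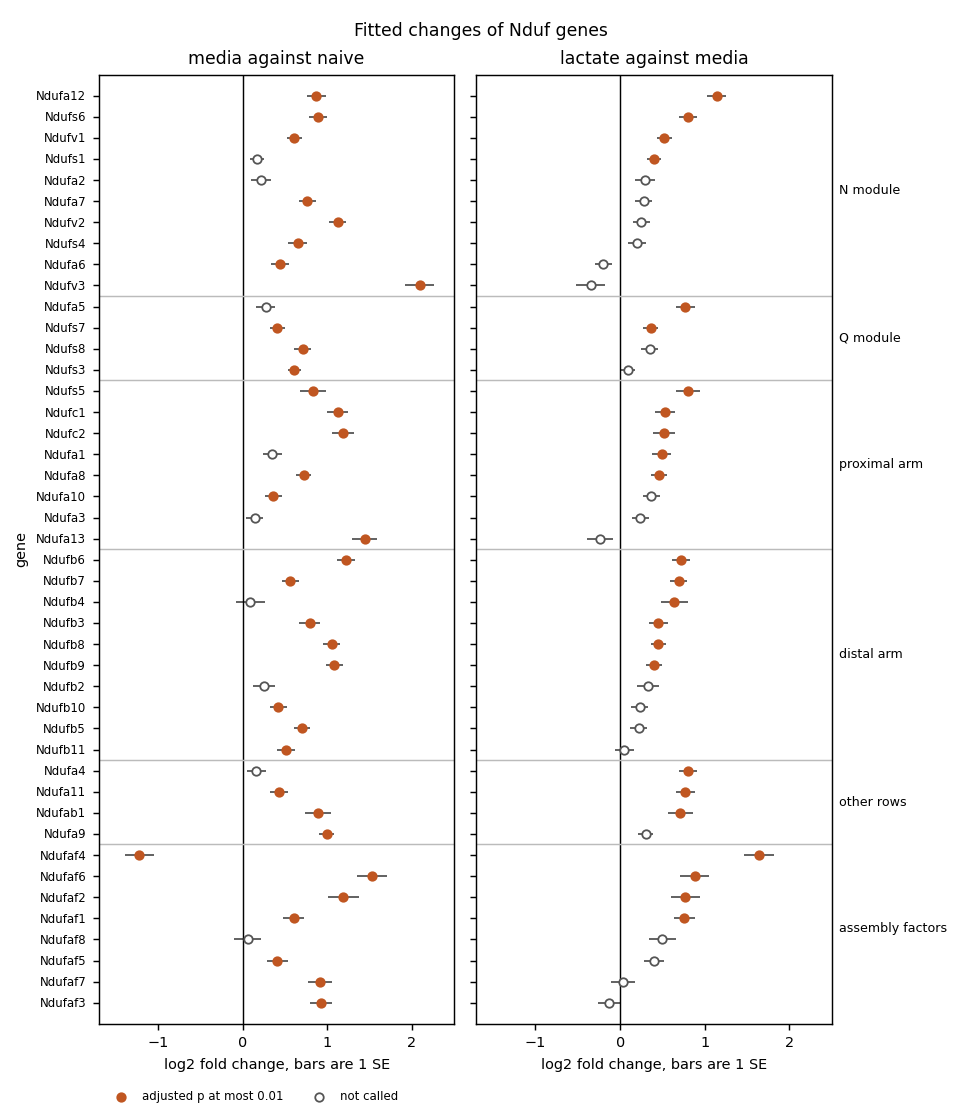
Fitted log2 fold change of 44 Nduf genes (x axes, bars are 1 SE) for media against naive (left) and lactate against media (right), grouped by the part of complex I. Filled points passed an adjusted p of 0.01 in edgeR's test. Ndufaf4 stands apart, at -1.22 on the left and 1.64 on the right, and Ndufv3 at 2.09 on the left is the largest rise after activation.

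The N module holds the entry point for electrons. Of its 10 nuclear genes, 4 rose with lactate, 0 fell, and the median log2 fold change was 0.28. Ndufa12, an accessory subunit that joins the N module late in assembly, had the largest rise of any subunit. Its levels were 12.1, 14.6, 13.2 and 13.9 CPM in naive, 27.0, 20.6, 26.3 and 24.6 CPM in media, and 53.0, 52.3, 59.6 and 53.3 CPM in lactate libraries. The 3 groups were far apart, and the log2 fold change of lactate against media was 1.14 ± 0.11 (SE, edgeR adjusted p = 5.56e-05). Ndufs6, a zinc-binding accessory subunit, gave 42.4, 30.5, 34.3 and 39.4 CPM in media and 59.2, 63.1, 67.8 and 66.1 CPM in lactate libraries, with no overlap and a log2 fold change of 0.80 ± 0.11 (SE, edgeR adjusted p = 0.000213).

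Ndufv1, the core subunit that binds NADH and the flavin, and Ndufs1, the large core subunit with iron-sulfur clusters, completed the 4 that rose. Ndufv1 went from 96.2 ± 9.69 to 138 ± 7.36 CPM (SD, n = 4) and Ndufs1 from 106 ± 6.54 to 140 ± 9.02 CPM. Their log2 fold changes were 0.52 and 0.40 (edgeR adjusted p = 0.00114 and 0.00177). The third core subunit of this module, Ndufv2, was not called at 0.25 ± 0.10 (SE, edgeR adjusted p = 0.0535), and its lowest lactate library (138 CPM) lay within the media range of 121 to 151 CPM. Ndufa2, Ndufa7 and Ndufs4 had log2 fold changes of 0.29, 0.28 and 0.20 without passing the test.

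The other N module genes, Ndufv3 and Ndufa6, were below 0. Ndufv3, an accessory subunit of the flavin-binding part, gave 201, 217, 206 and 220 CPM in media and 129, 190, 164 and 178 CPM in lactate libraries. Every lactate library lay below every media library, but the spread in lactate was wide and the log2 fold change of -0.35 ± 0.17 (SE) was not called (edgeR adjusted p = 0.111). With the donor as replicate block its adjusted p was 0.0416, still above the threshold. Ndufa6, which holds an acyl carrier protein on the matrix arm, was at -0.20 ± 0.10 (SE, edgeR adjusted p = 0.15) with overlapping groups.

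In the Q module, where ubiquinone is reduced, 3 of 5 listed genes rose with lactate and the median log2 fold change was 0.36. Ndufa5, an accessory subunit, led with 24.7, 20.7, 20.7 and 20.4 CPM in media and 39.5, 40.4, 34.2 and 33.2 CPM in lactate libraries. This was a log2 fold change of 0.77 ± 0.11 (SE, edgeR adjusted p = 0.000273), and the groups did not overlap. Ndufs7, with the last iron-sulfur cluster before the quinone, was called at 0.36 ± 0.09 (SE, edgeR adjusted p = 0.00863). The core subunits Ndufs8 and Ndufs3 were not called. Ndufs8 was at 0.35 ± 0.10 (SE, edgeR adjusted p = 0.0122) with no overlap between groups, just outside the threshold, and Ndufs3 was at 0.09 ± 0.08 (SE) with 61.8 ± 4.09 CPM in media and 65.7 ± 3.47 CPM in lactate cells. With the donor block 2 of the 5 Q module genes were called higher. Of the 7 nuclear core genes, all in the matrix arm, 4 rose with a median log2 fold change of 0.36 (3 with the donor block). Of the 30 accessory rows over the whole complex, Ndufa4 included, 17 rose with a median of 0.45 (12 with the donor block).

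Of 8 genes of the proximal membrane arm, 5 rose with lactate (4 with the donor block, without Ndufa1) and the median log2 fold change was 0.47. Ndufs5, a small subunit on the intermembrane side, was among the lowest in reads, at 6.84, 5.89, 6.02 and 5.27 CPM in media and 10.1, 11, 9.69 and 11 CPM in lactate libraries. The groups were apart, with a log2 fold change of 0.80 ± 0.14 (SE, edgeR adjusted p = 0.0011). Ndufc1 and Ndufc2, paired membrane subunits, rose by 0.53 and 0.52 on the log2 scale, Ndufa1 by 0.49 and Ndufa8 by 0.46. Ndufa10, a subunit with a kinase-like fold, was just outside the threshold at 0.37 ± 0.10 (SE, edgeR adjusted p = 0.012), and Ndufa3 was at 0.24. Ndufa13, also known as GRIM-19, was at -0.24 ± 0.15 (SE, edgeR adjusted p = 0.219), with 164 to 193 CPM in media and 118 to 173 CPM in lactate libraries, which overlapped.

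The distal membrane arm carries the b series of subunits. Of its 10 genes in the table, 6 rose with lactate and the median log2 fold change was 0.42, but with the donor as replicate block 2 were called, Ndufb6 and Ndufb7. Ndufb6 was at 50.8, 36.0, 45.8 and 47.7 CPM in media and 66.2, 74.8, 78.7 and 77.5 CPM in lactate libraries, and Ndufb7 at 75.3, 60.7, 68.0 and 72.5 CPM in media and 101, 118, 111 and 117 CPM in lactate libraries. Neither pair of groups overlapped, and the log2 fold changes were 0.72 ± 0.11 and 0.69 ± 0.10 (SE, edgeR adjusted p = 0.000401 and 0.000274). Ndufb4 (0.64), Ndufb8 (0.45), Ndufb3 (0.45) and Ndufb9 (0.40) were called without the block only. Ndufb2, Ndufb10 and Ndufb5 were at 0.33, 0.23 and 0.22 without passing. Ndufb11 was close to 0 at 0.05 ± 0.11 (SE), with 90.1 to 104 CPM in media and 79.8 to 108 CPM in lactate libraries.

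Outside these arm lists stood Ndufa4, Ndufa11, Ndufab1 and Ndufa9. Ndufa4 was named as a complex I subunit but is now known as a subunit of complex IV. It was at 65.9, 71.1, 69.8 and 57.3 CPM in naive, 86.2, 59.6, 75.0 and 73.3 CPM in media, and 130, 122, 131 and 129 CPM in lactate libraries. The naive and media groups overlapped (log2 fold change 0.16 ± 0.11, SE, edgeR adjusted p = 0.23), whereas lactate was apart from media at 0.80 ± 0.11 (SE, edgeR adjusted p = 0.000228). Ndufa11, a membrane subunit, and Ndufab1, the mitochondrial acyl carrier protein that also serves fatty acid synthesis, rose with lactate by 0.77 and 0.71 on the log2 scale (edgeR adjusted p = 0.000265 and 0.00235). Ndufa9 was at 0.30 ± 0.09 (SE, edgeR adjusted p = 0.0152), with no overlap but outside the threshold.

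**Figure D4:**
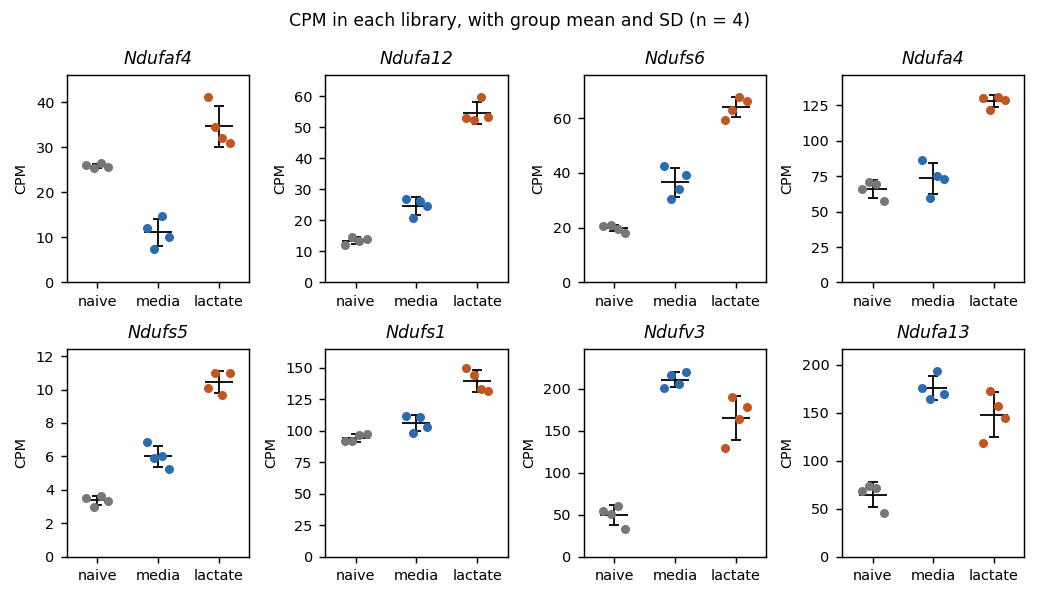
CPM (y axes, from 0) of 8 genes in each naive, media and lactate library, with the mean and SD of 4. Ndufa12, Ndufs6 and Ndufs5 step up from naive to media and again to lactate, Ndufa4 and Ndufs1 step up mainly from media to lactate, Ndufaf4 is lowest in media (7.53 to 14.7 CPM), and Ndufv3 and Ndufa13 are highest in media.

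Among the assembly factors, Ndufaf4 had a course that no other gene of the list shared. Its product works with that of Ndufaf3 on the building of the Q module. Ndufaf4, on GRCm38 chr4:24898083-24905001 (plus strand), was at 26.1, 25.4, 26.5 and 25.6 CPM in naive, 12.1, 7.53, 14.7 and 10.2 CPM in media, and 41.1, 34.5, 32.1 and 31.0 CPM in lactate libraries. The 3 groups did not overlap, and media was the lowest. The log2 fold change was -1.22 ± 0.17 for media against naive (SE, edgeR adjusted p = 4.83e-05) and 1.64 ± 0.18 for lactate against media (SE, edgeR adjusted p = 6.57e-05). For lactate against naive it was 0.42 ± 0.17 (SE, edgeR adjusted p = 0.0387), which did not pass. Ndufaf4 was the only one of the 45 genes called lower in any comparison. Its partner Ndufaf3 was at 8.30 to 11.1 CPM in naive, 17.4 to 21.6 CPM in media and 16.0 to 18.9 CPM in lactate libraries, with log2 fold changes of 0.93 ± 0.13 for media against naive (SE, edgeR adjusted p = 3.85e-05) and -0.13 ± 0.13 for lactate against media (SE, edgeR adjusted p = 0.454).

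Ndufaf6, Ndufaf2 and Ndufaf1 rose both after activation and with lactate. Ndufaf6, needed early in assembly, was at 3.53 to 5.47 CPM in naive, 9.33 to 16.2 CPM in media and 23.2 to 26.1 CPM in lactate libraries. The lactate and media groups were apart, with a log2 fold change of 0.88 ± 0.17 (SE, edgeR adjusted p = 0.00194). Ndufaf2 is a relative of Ndufa12 and holds its place on the growing complex until Ndufa12 arrives. It was at 9.53, 6.44, 9.14 and 9.15 CPM in media and 13.5, 15.2, 14.9 and 14.7 CPM in lactate libraries, a log2 fold change of 0.77 ± 0.17 (SE, edgeR adjusted p = 0.00407). Of its exonic bases 65.6% overlap B230220B15Rik on the opposite strand, and the strand setting of the read counting is not given in the sources used here. Ndufaf1, part of the complex that assembles the membrane arm, was at 0.76 ± 0.12 (SE, edgeR adjusted p = 0.00052).

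The remaining assembly factors were not called with lactate. Ndufaf8 was at 0.50 ± 0.16 (SE, edgeR adjusted p = 0.0225) and Ndufaf5, which modifies an arginine of Ndufs7, at 0.40 ± 0.12 (SE, edgeR adjusted p = 0.0169), both with lactate libraries above every media library. Ndufaf7, an arginine methyltransferase, was at 0.03 ± 0.14 (SE), with 23.1 to 26.0 CPM in media and 22.6 to 26.5 CPM in lactate libraries. Of 11 further assembly factors with other names that were tested, 6 rose and 1 fell with lactate. Ecsit and Acad9, which work with Ndufaf1, rose by 0.68 and 0.63 on the log2 scale (edgeR adjusted p = 0.00491 and 0.000327), Foxred1 by 0.86, Timmdc1 by 0.77, Tmem126a by 0.57 and Tmem70 by 0.48. Dmac2 went from 46.9 ± 8.07 CPM in media to 28.9 ± 5.03 CPM in lactate cells (SD, n = 4), where its log2 fold change was -0.69 ± 0.15 (SE, edgeR adjusted p = 0.00286).

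**Figure D5:**
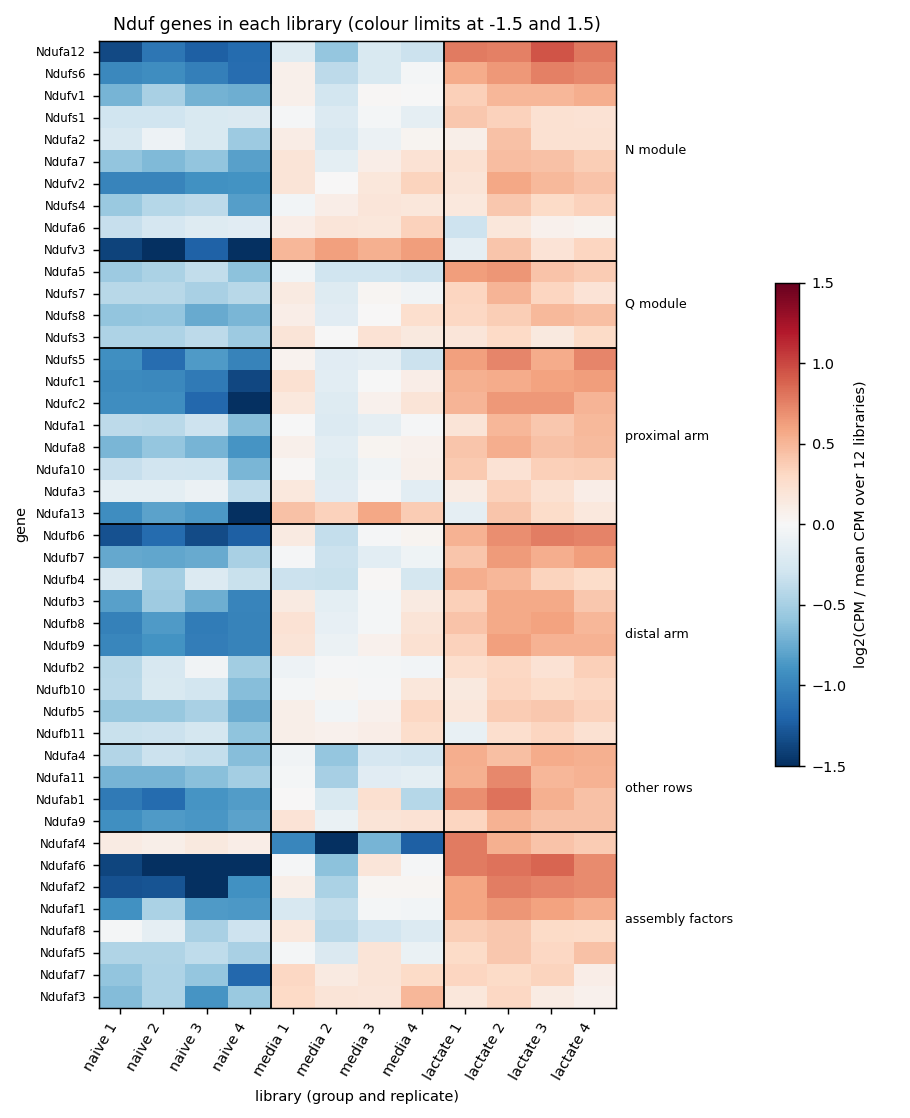
Each of 44 Nduf genes (rows, grouped by part of complex I) in each of 12 libraries (columns) as log2 of its CPM over its mean CPM, with colours limited as the scale shows. Most rows go from blue in naive to red in lactate libraries, Ndufaf4 is blue only in media, and Ndufv3, Ndufa13 and Ndufa6 are reddest in media.

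Media cells were compared with naive cells to describe complex I after activation. Of the 37 subunit genes, 29 rose, 0 fell and 8 were not called, and of the 8 assembly factor genes 6 rose and 1, Ndufaf4, fell. Over all tested genes 28.5% were called higher and 29.0% lower. The log2 fold changes of the subunits were all above 0, with a median of 0.65 and a range of 0.09 to 2.09, against -0.03 for all tested genes. At an unadjusted p under 0.05, 31 subunit genes were higher and 0 lower, beside 4787 higher and 4940 lower of all 13767 tested genes. DESeq2 called 29 subunit genes higher and 0 lower. These values stand beside the B cell, myeloid and red cell marker RNA in the naive libraries given above. With naive replicates 3 and 4 alone, the pair with the least myeloid and red cell marker RNA (458 to 489 and 84.1 to 378 CPM), 21 subunit genes were called higher and 0 lower, with a median log2 fold change of 0.62. How many of all tested genes were called with these naive libraries alone is not given here, so the count has no background beside it. This pair was chosen after the data were seen. It was not lower in every marker list: replicate 4 held 901 CPM of B cell markers, above replicate 1 at 800 CPM, and its T cell markers were the lowest of the naive libraries (1580 CPM against 2640 to 3580 CPM).

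The largest rise after activation was that of Ndufv3, at 54.1, 50.4, 61.0 and 33.1 CPM in naive and 201, 217, 206 and 220 CPM in media libraries. The groups were far apart, with a log2 fold change of 2.09 ± 0.17 (SE, edgeR adjusted p = 4.63e-07). Ndufa13 went from 68.0, 73.9, 71.2 and 45.9 CPM to 176, 164, 193 and 169 CPM, a log2 fold change of 1.44 ± 0.15 (SE, edgeR adjusted p = 4.06e-06). For both genes naive replicate 4 was the lowest library. Of the exonic bases of Ndufa13, 30.0% overlap Tssk6 on the opposite strand. Ndufaf6 stood between these genes at 1.53, and Ndufb6 at 1.22, Ndufaf2 at 1.19 and Ndufc2 at 1.18 came after them. Of the core subunits, Ndufv2 rose by 1.12, Ndufs8 by 0.71, Ndufv1 and Ndufs3 by 0.61 and Ndufs7 by 0.41 on the log2 scale. Ndufs1 was not called at 0.17 ± 0.08 (SE, edgeR adjusted p = 0.076), although its 4 naive libraries (91.9 to 97.3 CPM) lay below its 4 media libraries (98.5 to 112 CPM).

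The 8 subunit genes not called after activation were Ndufa4, Ndufa5, Ndufb4, Ndufa1, Ndufs1, Ndufb2, Ndufa2 and Ndufa3, with log2 fold changes from 0.09 (Ndufb4) to 0.35 (Ndufa1). The first 5 of them were called higher with lactate. By part of the complex, 8 of 10 N module genes rose after activation, 4 of 5 Q module genes, 6 of 8 proximal and 8 of 10 distal membrane arm genes. Thus 16 subunit genes were called higher at both steps, 13 after activation only, 5 with lactate only and 3 (Ndufb2, Ndufa2 and Ndufa3) at neither step. The comparisons share the media libraries, and whether a gene's changes at the 2 steps differed was not tested.

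Lactate cells against naive cells gave the sum of both steps. Here 36 of 37 subunit genes rose and 0 fell, and 7 of 8 assembly factor genes rose and 0 fell, beside 33.0% higher and 32.0% lower over all tested genes. The median log2 fold change was 1.06 for the subunits. Beside 6333 of all 13767 tested genes changed at least 2-fold in either direction, 21 subunit genes were at least 2-fold higher. Ndufaf6 was the highest at 2.41 ± 0.19 (SE, edgeR adjusted p = 1.75e-07), from 4.63 ± 0.809 to 24.7 ± 1.20 CPM (SD, n = 4). Ndufa12 followed at 2.02, Ndufaf2 at 1.96, Ndufb6 at 1.94 and Ndufv3 at 1.73. Ndufa6 was the only subunit gene not called, at 0.24 ± 0.11 (SE, edgeR adjusted p = 0.0514). With naive replicates 3 and 4 alone, 33 subunit genes were called higher and 0 lower, and the share over all tested genes is not given here either.

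Within a group the same library was often the lowest. Media replicate 2 was the lowest media library for 29 of the 37 subunit genes, lactate replicate 1 the lowest lactate library for 23 and naive replicate 4 the lowest naive library for 21. Their summed subunit levels were 2304.0, 2925.3 and 1422.7 CPM. The coefficient of variation of a subunit gene over 4 libraries had a median of 8.4% in naive, 10.0% in media and 7.19% in lactate cells. Ndufv3 had the highest in naive (24.0%) and lactate cells (16.2%), and Ndufab1 in media cells (19.8%).

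The other respiratory complexes were set beside complex I. With lactate, 1 of 4 complex II genes, 7 of 9 complex III genes, 6 of 11 complex IV genes and 11 of 17 ATP synthase genes rose and 0 fell, with median log2 fold changes of 0.22, 0.62, 0.35 and 0.39, against 21 of 37 and 0.40 for complex I. Summed CPM was 1.19-fold, 1.43-fold, 1.32-fold and 1.36-fold higher in lactate than in media cells, against 1.24-fold for complex I. After activation, 3 of 4, 7 of 9, 10 of 11 and 14 of 17 rose, and 1 ATP synthase gene fell. With the donor as replicate block, 1, 7, 2 and 7 genes of the 4 complexes were called higher with lactate, against 15 of complex I. Ndufa4, now placed in complex IV, was counted with complex I in all of these values. These lists differ in size, and a difference between complexes was not tested.

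To see what the genes share in sequence, the bases around their start sites (250 before and 50 after, RefSeq, GRCm38.p6) were searched for the core motifs of known regulators of respiratory genes. Windows were found for 40 of the 45 genes, 42 windows in all. The core AAGATGGC of the factor YY1, searched on both strands, was in 8 of the 42 windows (19.05%), beside 2.75% of 32851 windows of all genes and 4.38% of 12615 windows of tested genes. All 8 matches lay on the gene's own strand, 11 to 39 bases after the start and within an annotated exon. For 7 of the 8, all but Ndufaf8, the ATG inside the match is the annotated start codon, so the motif and the first codons cannot be told apart by letters. The stretches of 30 bases are shown 5′ to 3′ on the gene's strand, with the match in capitals.
Ndufc1, chr3:51408915-51408944: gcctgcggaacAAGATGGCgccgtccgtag
Ndufa9, chr6:126849097-126849126: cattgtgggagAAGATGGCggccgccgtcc
Ndufa3, chr7:3617384-3617413: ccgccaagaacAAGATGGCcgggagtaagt
Ndufs7, chr10:80249462-80249491: aggccgaggccAAGATGGCggcgctggcgg
Ndufaf8, chr11:120098933-120098962: aggcagggcccAAGATGGCggcgccctcga
Ndufs6, chr13:73328433-73328462: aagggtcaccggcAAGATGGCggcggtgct
Ndufs4, chr13:114388045-114388074: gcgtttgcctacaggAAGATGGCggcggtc
Ndufb8, chr19:44555393-44555422: tgaaccgcggagaaggtgAAGATGGCtgcc

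Of these 8 genes, Ndufs6, Ndufc1, Ndufb8 and Ndufs7 rose with lactate and the others were not called. The core GCGCATGC of NRF1, a regulator of nuclear genes for mitochondrial proteins, was in 5 windows (11.9%), beside 2.71% of all windows and 5.17% of those of tested genes. Matches on both strands overlap in Ndufaf4, Ndufaf5 and Ndufa11. Ndufaf4 had the most, with 1 match upstream and 1 at the start on its own strand. These 5 genes included the largest rise with lactate (Ndufaf4) and a gene below 0 (Ndufa6). Matches are shown in capitals as before, and for Ndufa8 and Ndufa6 the match is on the other strand.
Ndufaf4, chr4:24897959-24897988: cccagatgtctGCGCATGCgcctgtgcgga
Ndufaf4, chr4:24898073-24898102: gcccctggtgtGCGCATGCtccgtgcgtac
Ndufaf5, chr2:140170651-140170680: tagtcccgttgGCGCATGCgcctaatagaa
Ndufa11, chr17:56717691-56717720: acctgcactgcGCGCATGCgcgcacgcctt
Ndufa8, chr2:36049328-36049357: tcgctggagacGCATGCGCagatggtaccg
Ndufa6, chr15:82354356-82354385: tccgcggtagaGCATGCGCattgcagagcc

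The ETS core CCGGAAG was in 14.29% of the complex I windows, beside 8.86% of all windows and 17.61% of those of tested genes. The GC box GGGCGG was in 52.38%, beside 35.66% and 61.22%, and the cAMP response element TGACGTCA in 7.14%, beside 1.79% and 3.02%. A match is a run of letters and does not show that a factor binds there.

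Exons of 16 of the 45 genes overlap another gene on the opposite strand and those of 3 overlap one on the same strand, so reads could be shared. Of the genes that rose with lactate, the largest overlaps took 65.6% of the exonic bases of Ndufaf2 (B230220B15Rik) and 39% of Ndufb6 (Smim27). For Ndufb9 the overlap was 19.5% (Gm49356, same strand). Ndufa12, Ndufa4, Ndufs5, Ndufv3 and Ndufaf4 overlap no annotated exon of another gene.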

How the data were processed

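RNA was sequenced from 4 naive, 4 media and 4 lactate samples of CD8+ T cells (TruSeq Stranded mRNA, 71-base reads). The deposited values are raw read counts per gene, which the authors made, by their processing notes, with bcl2fastq 2.20.0.422, STAR 2.7.5b (GRCm38, mm10) and featureCounts. By the paper's methods, only uniquely mapped reads were counted, over annotated exons. Whether featureCounts used strand is not given in the sources used here. Genes with at least 1 CPM in at least 3 libraries were kept. Counts were scaled by TMM and fitted in 1 model of 3 groups over 12 libraries with edgeR 4.0.16 (quasi-likelihood test, R 4.3.3), with Benjamini-Hochberg adjustment over all 13767 genes and a threshold of 0.01. CPM use the TMM-scaled library size, and TPM the lengths in the table. Errors are SD over 4 libraries or SE of the fit. DESeq2 1.42.0, limma 3.58.1 (voom), other scalings, other filters, blocks, a gene length correction and the removal of each library were tried as alternatives. Intervals from counting were not used.

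The members and all gene lists were chosen with earlier results of these data known. Named genes were the 7 core subunits, all Ndufaf genes, the 5 largest called changes per comparison in each direction, the 3 smallest changes with lactate, the 3 highest and lowest levels, and Ndufa4; other members follow for completeness. Media and lactate samples came from 5 donors, of which 3 gave both. Deviations from the group means correlated at 0.374, 0.211 and 0.553 in these 3 pairs, each of which shares a donor. The main model held group only, so its p-values take no account of the donor. Pairing by donor entered only where the donor block is named. Pairs without a shared donor reached 0.371 and 0.297. Title numbers do not all name the same donor. Donors of naive samples are not given, so p-values there measure the spread between samples. In simulated data for lactate against media (13767 genes), 0% of genes changed 1.3-fold and 4% of those changed 1.5-fold were recovered. At 2-fold 60% and at 3-fold 86% were recovered, with 0 false calls. The simulation left 13567 genes unchanged, whereas 13.9% of genes were called higher and 11.1% lower in the data. Its adjusted p threshold was therefore harder to pass, so these shares are not the recovery in the data. Annotation was GENCODE M21. The values of 1 member are counted in the totals but not reported here.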

Additional observations from a re-analysis of the deposited data

Results flagged for a closer look

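In 13 of the 135 groups examined (45 genes in 3 groups of 4 libraries), 1 library lay far from the other 3 by Dixon's test. Chance flags about 1 group in 20. Low libraries were media replicate 2 for Ndufa8 (56.3 CPM, others 64.6 to 65.9), Ndufa9 (90.8 CPM, others 111 to 113) and Ndufaf2 (6.44 CPM, others 9.14 to 9.53), lactate replicate 2 for Ndufa10 (135 CPM, others 149 to 152), naive replicate 4 for Ndufa10 (71.9 CPM, others 91.6 to 95.0) and naive replicate 3 for Ndufs7 (39.5 CPM, others 41.4 to 41.5). High libraries were naive replicate 2 for Ndufaf1 (17.1 CPM, others 12.6 to 13.1) and Ndufv1 (70.8 CPM, others 59.5 to 61.1), naive replicate 4 for Ndufb7 (54.1 CPM, others 44.1 to 45.1), media replicate 1 for Ndufa5 (24.7 CPM, others 20.4 to 20.7), media replicate 3 for Ndufb4 (4.57 CPM, others 3.60 to 3.76), lactate replicate 3 for Ndufa12 (59.6 CPM, others 52.3 to 53.3) and lactate replicate 2 for Ndufa11 (58.6 CPM, others 50.3 to 51.6). Without media replicate 2, Ndufaf2 lost its call for lactate against media (log2 fold change 0.65, edgeR adjusted p = 0.0129).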

How the results depend on the processing

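Over 25 alternatives per comparison, 15 of the 25 genes called for lactate against media were called in every alternative, 27 of 36 for media against naive and 38 of 43 for lactate against naive, and no called gene changed sign. The lactate calls that were lost in some alternatives reached adjusted p values (edgeR unless another tool was the alternative) of, for example, 0.0141 for Ndufc1, 0.015 for Ndufaf2, 0.0157 for Ndufa1, 0.0186 for Ndufb8, 0.0245 for Ndufc2, 0.0308 for Ndufb4, 0.0312 for Ndufb3, 0.0318 for Ndufb9 and 0.0544 for Ndufs7. The number of subunit genes higher with lactate, 21, was 16 with DESeq2 size factors, upper quartile scaling or total counts, 23 with DESeq2, 15 with the title number or the donor as replicate block, and 13 to 24 when each library was left out, lowest without lactate replicate 3. The cause was not tested, and apart from the donor block the shares over all tested genes in these settings are not given here. Summed TPM in place of CPM gave ratios of 1.16 (lactate to media) and 1.92 (lactate to naive) for the subunits. Signs reversed only for genes near 0 and not called. Ndufaf7 for lactate against media was at -0.006 with DESeq2, -0.005 with its size factors, -0.014 with total counts, -0.016 with the donor block and -0.02 with the length correction, and at -0.005 to 0.074 in single omissions. Ndufb11 was at -0.018 with the donor block and -0.019 with the length correction, and at -0.002 to 0.136 in single omissions. For media against naive, Ndufaf8 was at -0.002 with size factors and -0.09 to 0.132 in single omissions, and Ndufb4 at -0.022 with naive replicates 3 and 4 alone and -0.052 to 0.126 in single omissions. For media against naive, the calls lost in some alternatives included those of Ndufb11, Ndufb7, Ndufb10, Ndufs7, Ndufa10, Ndufa6, Ndufaf5 and Ndufa11 (highest edgeR adjusted p 0.0128 to 0.107), and for lactate against naive those of Ndufa2, Ndufb4, Ndufb2, Ndufa3 and Ndufaf8 (0.0132 to 0.0495). With 4 libraries a group, a gene that was not called is not shown to be unchanged.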

Other observations

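Ndufb1-ps, left out by its name, is annotated as a transcript at a bidirectional promoter and not as coding. Ndufb1, among the 11 distal arm genes listed, had no tested row under that symbol. Whether the row of Ndufb1-ps stands for it was not tested. Ndufb1-ps was at 33.3 ± 2.46 CPM in naive, 51.2 ± 3.01 CPM in media and 71.2 ± 4.99 CPM in lactate cells (SD, n = 4). Its log2 fold changes were 0.62 ± 0.09 for media against naive and 0.48 ± 0.09 for lactate against media (SE, edgeR adjusted p = 4.81e-05 and 0.00128), within the range of the subunit genes. Ndufa12-ps was at 0.492 to 1.11 CPM as group means. Reads that fit both it and Ndufa12 equally well would be counted for neither, since only uniquely mapped reads were counted. Foxred1, an assembly factor, was at 37.3 ± 2.86, 29.1 ± 1.90 and 52.8 ± 1.92 CPM (SD, n = 4) in naive, media and lactate cells, lower after activation (log2 fold change -0.36, edgeR adjusted p = 0.00296) and higher with lactate (0.86, edgeR adjusted p = 6.19e-05), as Ndufaf4 was.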
